A study of Mus musculus with 6 samples.

Results

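Expression of 10 genes for the uptake of dying cells and for tissue-resident macrophages was followed through the cells of infarcted and sham-operated mouse hearts. The genes were chosen by symbol, and each matched 1 of the 32285 genes counted. They are the receptor tyrosine kinases Mertk and Axl, their ligands Gas6 and Pros1, the phosphatidylserine receptor Timd4, and the scavenger and surface receptors Cd163, Mrc1, Lyve1, Folr2 and Stab1. The symbols were fixed by a list, with no measured value in the rule, and the UMIs (unique molecular identifiers) of each gene were summed per library and per cell class.

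The cells came from the ventricles of male mice aged 8 to 12 weeks, either B6.Cg-Trpm4tm1.2-PG knockouts (KO) or C57BL/6JRj wild types (WT). All mice had surgery. The groups were sham at 24 h, ligation of the LAD (the left anterior descending artery of the heart) at 24 h, and the same ligation at 72 h, in WT and in KO. No sham group at 72 h was analysed here. Hearts were digested with thermolysin and papain and cardiomyocytes were held back by a mesh. Live cells were sorted as Calcein-AM positive and DAPI negative, and cells of 4 mice were pooled into each of the 6 libraries, made with the 10x 3′ chemistry. With 1 library in each group no difference has a replicate check, no test was made, and the mice of a pool cannot be told apart. All 95% intervals below cover counting error only.

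Efferocytosis is the engulfment of dying cells by phagocytes. Macrophages recognise the exposed lipid phosphatidylserine either directly, as Timd4 does, or through the bridging proteins Gas6 and Pros1, which bind it and engage the kinases Mertk and Axl. In the healthy heart a self-maintaining population of resident macrophages carries Timd4, Lyve1 and Folr2, and infarction brings in monocytes from the blood, which give rise to further macrophages.

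The sequences upstream of 5 of these genes are shown to set genes whose UMIs lay mainly in macrophages after sham (Timd4, Cd163 and Mrc1) beside genes read in many cell classes (Mertk and Gas6). The windows are the 250 bases before the RefSeq start in GRCm38.p6, in which 9 of the 10 genes were matched, Lyve1 being the exception. Capitals mark GAGGAAG, letters typical of sites for the macrophage factor PU.1, TGCTGAC, letters of sites for the MAF factors, and GGGCGG, the GC box, each searched on both strands. No pair of marked matches overlapped in these windows.
Timd4, chr11:46810549-46810798, plus strand: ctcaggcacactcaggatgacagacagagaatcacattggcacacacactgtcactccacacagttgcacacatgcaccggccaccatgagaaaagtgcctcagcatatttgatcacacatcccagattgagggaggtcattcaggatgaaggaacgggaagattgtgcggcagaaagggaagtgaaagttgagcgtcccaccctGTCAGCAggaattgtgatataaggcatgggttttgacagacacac
Cd163, chr6:124304401-124304650, plus strand: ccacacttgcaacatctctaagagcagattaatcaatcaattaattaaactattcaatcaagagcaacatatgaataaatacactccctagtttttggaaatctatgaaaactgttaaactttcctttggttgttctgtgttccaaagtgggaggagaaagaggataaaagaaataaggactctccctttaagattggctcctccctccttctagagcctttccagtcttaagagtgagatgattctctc
Mrc1, chr2:14229164-14229413, plus strand: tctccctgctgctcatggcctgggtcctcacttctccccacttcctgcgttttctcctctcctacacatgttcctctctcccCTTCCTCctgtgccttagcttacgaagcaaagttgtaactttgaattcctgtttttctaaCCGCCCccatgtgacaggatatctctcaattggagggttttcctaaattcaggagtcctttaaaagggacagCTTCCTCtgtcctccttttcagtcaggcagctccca
Mertk, chr2:128698665-128698914, plus strand: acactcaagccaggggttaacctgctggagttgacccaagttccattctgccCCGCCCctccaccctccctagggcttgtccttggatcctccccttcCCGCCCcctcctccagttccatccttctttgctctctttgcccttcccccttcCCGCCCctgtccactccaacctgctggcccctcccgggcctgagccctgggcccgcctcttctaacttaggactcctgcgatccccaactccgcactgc
Gas6, chr8:13494536-13494785, minus strand: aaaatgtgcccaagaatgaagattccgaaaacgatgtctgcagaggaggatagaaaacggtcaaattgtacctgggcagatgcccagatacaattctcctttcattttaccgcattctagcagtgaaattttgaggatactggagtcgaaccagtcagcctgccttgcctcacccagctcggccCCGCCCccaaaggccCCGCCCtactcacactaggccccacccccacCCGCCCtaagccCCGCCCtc
GAGGAAG was present in 10.6% of all 32851 windows of this length, TGCTGAC in 3.81% and GGGCGG in 32.7%. Timd4 held TGCTGAC at 45 bases before the start, and Mrc1 held GAGGAAG at 168 and at 36 bases and 1 GC box at 108 bases. The Mertk window held 3 GC boxes and the Gas6 window 4, and the Cd163 window held none of the 3 motifs. Cd163 also had 36.8% G and C and 0 CG pairs, against 63.6% and 7 in Mertk, 54.8% and 10 in Gas6, and a median of 52.4% and 6 over all windows. Among the windows not printed, Pros1 held 5 GC boxes, Axl held 1 GC box and 1 GAGGAAG, and Folr2 and Stab1 held no match. These matches describe letters and do not show binding.

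The libraries held 3625 to 7286 deposited cells and 199708815 UMIs in all, and 32085 cells were kept. The median depth was 3073 to 8011 UMIs per kept cell in 5 libraries and 1350 in KO at 72 h. Trpm4, the targeted gene, was at 4.29 to 8.79 CPM in the WT libraries and 2.57 to 6.197 in KO, lower in KO at each condition. Which part of it the KO allele lacks is not given in the sources used here, and a 3′ tag outside that part would not check the genotype. Of all cell barcodes, 118 occurred in more than 1 library. Despite the mesh, 339 kept cells formed a cluster led by cardiomyocyte genes such as Myl2 and Tnnt2.

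Monocytes and macrophages were the class in which the genes were compared. In order of WT sham, KO sham, WT and KO at 24 h, and WT and KO at 72 h, the class held 978, 759, 651, 1398, 1733 and 2351 cells. Its 25 markers summed to between 33285 and 52344 CPM, the UMIs of a gene per 1000000 UMIs of the class. Within it, 1 cluster was resident-like, led among others by the resident macrophage genes Cbr2 and Vsig4. None of the 10 genes was used to cluster or to name cells. This cluster held 191 and 195 cells after sham in WT and KO, 51 and 75 at 24 h after ligation, and 35 and 29 at 72 h. As a share of monocyte/macrophage cells it was 19.5% in WT sham (95% interval 17.1 to 22.2) and 25.7% in KO sham (22.6 to 29.0), and 7.83% (5.89 to 10.2) and 5.36% (4.24 to 6.68) at 24 h. At 72 h the shares were 2.02% and 1.23%. The resident-like share was thus highest in both sham libraries and lowest in both libraries at 72 h, with no overlap between the 3 conditions.

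The remaining monocyte/macrophage cells changed in makeup as well. A cluster led by Ccl24, Arg1 and Spp1 held 55.9% to 66.5% of the class in the 4 libraries at 24 h, sham included, and 30.5% (WT) and 14.8% (KO) at 72 h. Within the class at 72 h, the leading cluster in WT (42.9%) was marked by Trem2, Fcrls and C1q genes. In KO it was a low-depth cluster led by Ear2, Adgre4 and Plvap (40.4%). The latter held 949 cells with a median of 888 UMIs in KO at 72 h, and 21 to 51 cells in each other library. In WT at 72 h the Ccl24 cluster still held 30.5%, beside the Trem2 cluster, so that cells of both entered the 72 h values. A cluster led by MHC class II genes scored highest for monocytes and macrophages but was left unnamed, as more dendritic markers led it. It held 540 cells in WT and 1474 in KO at 72 h, and 48 to 171 in the libraries at 24 h. It lies outside the class, so these shares and those of the resident-like cluster have a denominator without it.

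The 10 genes fell into different patterns over cell classes. Timd4, Mrc1 and Folr2 had their highest median in the resident-like cluster, with a range over libraries that did not overlap that of the class next in order. These orders use libraries with at least 100 cells of a class, at least 30 in the resident-like cluster and at least 10 in the lymphatic and Npr3 endothelial clusters. Below that minimum, the unnamed MHC class II cluster, with 48 cells in WT at 24 h after ligation, had 33.9 CPM of Timd4 there, above the lowest resident-like value of 17.5. The 33.9 CPM were 21 UMIs in 5 cells, or 23.2 CPM without the leading barcode, and the 17.5 were 6 UMIs. Cd163 and Stab1 also had their highest median in the resident-like cluster, with overlapping ranges. Lyve1 was highest in lymphatic endothelial cells, at a median of 1773 CPM (range 927 to 2727 over 5 libraries of 16 to 37 such cells), against 492 (87.3 to 724) in resident-like macrophages. Gas6 had like medians in fibroblasts (331, 40.1 to 438), in an endothelial cluster marked by Npr3 (329, 235 to 551) and in resident-like macrophages (311, 99.9 to 478), and these ranges overlapped. Axl was highest in fibroblasts (443, 119 to 679) and smooth muscle cells (257, 238 to 275). Mertk was highest in smooth muscle cells (84.8, 82.7 to 86.8 in 2 libraries), above resident-like macrophages in the 5 libraries with at least 30 such cells (47.3, 34.9 to 53.5). Pros1 led in the 1 library with enough platelets (222 CPM), followed by lymphatic endothelial cells (192, 136 to 260).

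**Figure D1:**
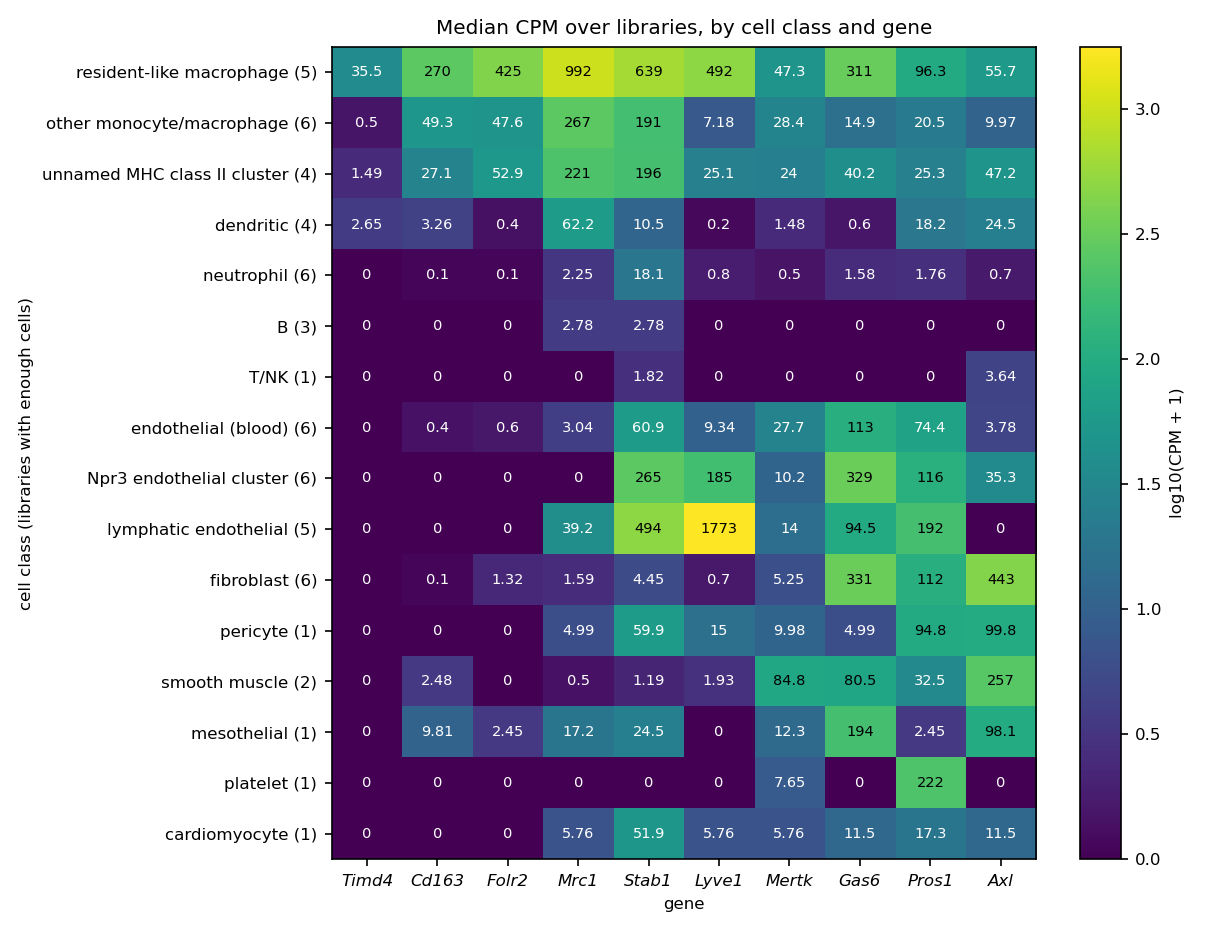
Median level of each gene (columns) in each cell class (rows) over the libraries with enough cells, whose number is in parentheses. Colour is log10(CPM + 1) and the printed number is the median CPM. The resident-like row holds the highest medians of Timd4, Cd163, Folr2, Mrc1 and Stab1, whereas Axl peaks in fibroblasts (443 CPM) and Lyve1 in lymphatic endothelial cells (1773 CPM).

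The cells that supplied the UMIs shifted with ligation. Resident-like macrophages held 85.0% of the Timd4 UMIs of the WT sham library (142 UMIs) and 31.4% at 24 h after ligation (16 UMIs). In the latter library 21 Timd4 UMIs lay in 5 cells of the unnamed MHC class II cluster. In KO at 24 h after ligation, resident-like cells held 19 of the 28 Timd4 UMIs of the monocyte/macrophage class. For Gas6, fibroblasts and blood endothelial cells together with their Npr3 cluster supplied most UMIs in the sham libraries, while monocyte/macrophage cells outside the resident-like cluster supplied 2.07% in WT and 2.91% in KO. At 72 h those cells supplied 76.7% of Gas6 in WT and 41.8% in KO. Fibroblasts supplied 63.1% of Axl UMIs in WT sham and 25.3% in WT at 72 h. These shares follow both the number of cells caught in each class and the level in each cell, which the shares alone cannot separate.

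**Figure D2:**
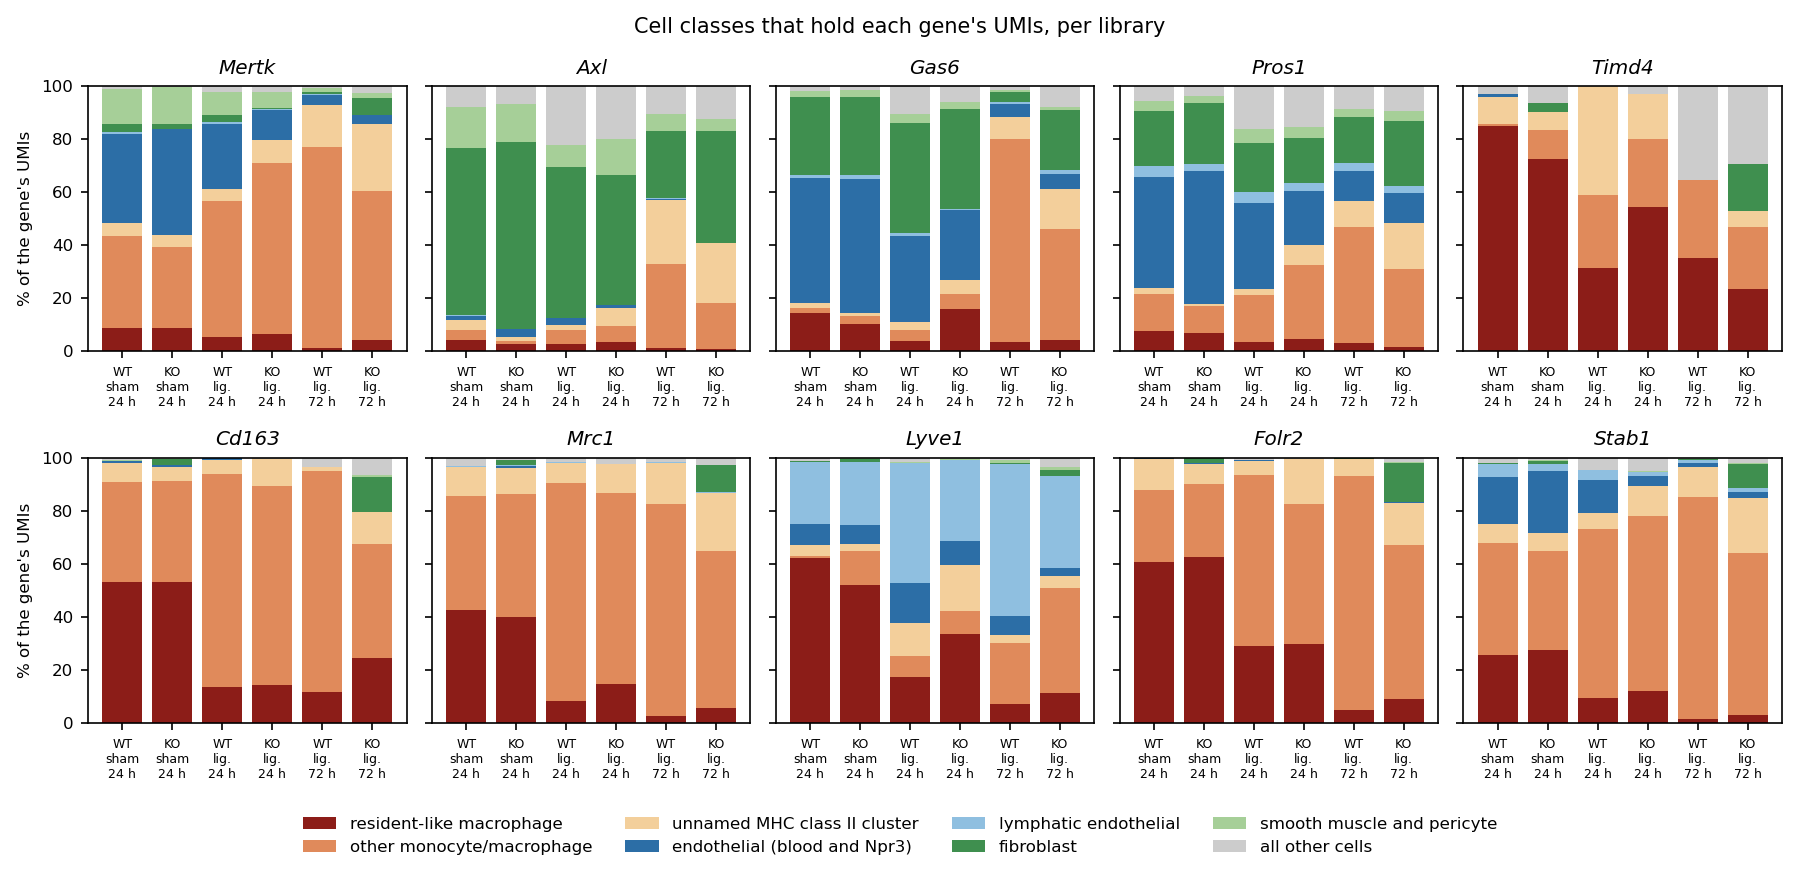
Share of each gene's UMIs (vertical axis, percent) held by each cell class in each of the 6 libraries. Timd4 lies mainly in resident-like macrophages after sham (85.0% in WT, 72.6% in KO), and the Gas6 bars turn from endothelial cells and fibroblasts after sham to macrophages at 72 h (76.7% outside the resident-like cluster in WT).

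Between sham and 24 h after ligation, several of the genes were lower in monocyte/macrophage cells and none was at least 2-fold higher. Gas6, Timd4, Lyve1 and Folr2 were at least 2-fold lower in WT, 4 of the 10 genes, where 3.28% of the 9610 genes with at least 50 UMIs were that much lower. In KO the same 4 were joined by Axl and Pros1, 6 of 10 against 7.01% of 9977 genes. The share of all genes at least 2-fold higher was 2.57% in WT and 1.84% in KO. The median log2 ratio of the 10 genes was -0.66 in WT and -1.24 in KO, beside -0.11 and -0.27 over all genes.

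Between 24 h and 72 h after ligation, Gas6, Stab1 and Folr2 were at least 2-fold higher in WT, 3 of the 9 genes with enough UMIs, beside 9.49% of all genes. Cd163 and Lyve1 were at least 2-fold lower, 2 of 9 beside 7.8%. In KO, Gas6 and Axl were higher (2 of 9, beside 9.18%) and Cd163 was lower (1 of 9, beside 2.87%). The median log2 ratio was 0.41 in WT and 0.33 in KO, beside -0.01 and 0.15 over all genes.

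KO and WT differed less. After sham, no gene of the 10 was 2-fold apart, where 1.32% of all genes were higher and 0.215% lower in KO. At 24 h after ligation Axl and Timd4 were at least 2-fold lower in KO (2 of 10, beside 1.75%) and none was higher (0.55% of all genes were). At 72 h Lyve1 was higher in KO (1 of 9, beside 4.77%) and none was lower (0.624%). The 3 genotype comparisons use different libraries, whereas the ligation and time comparisons share the libraries at 24 h.

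**Figure D3:**
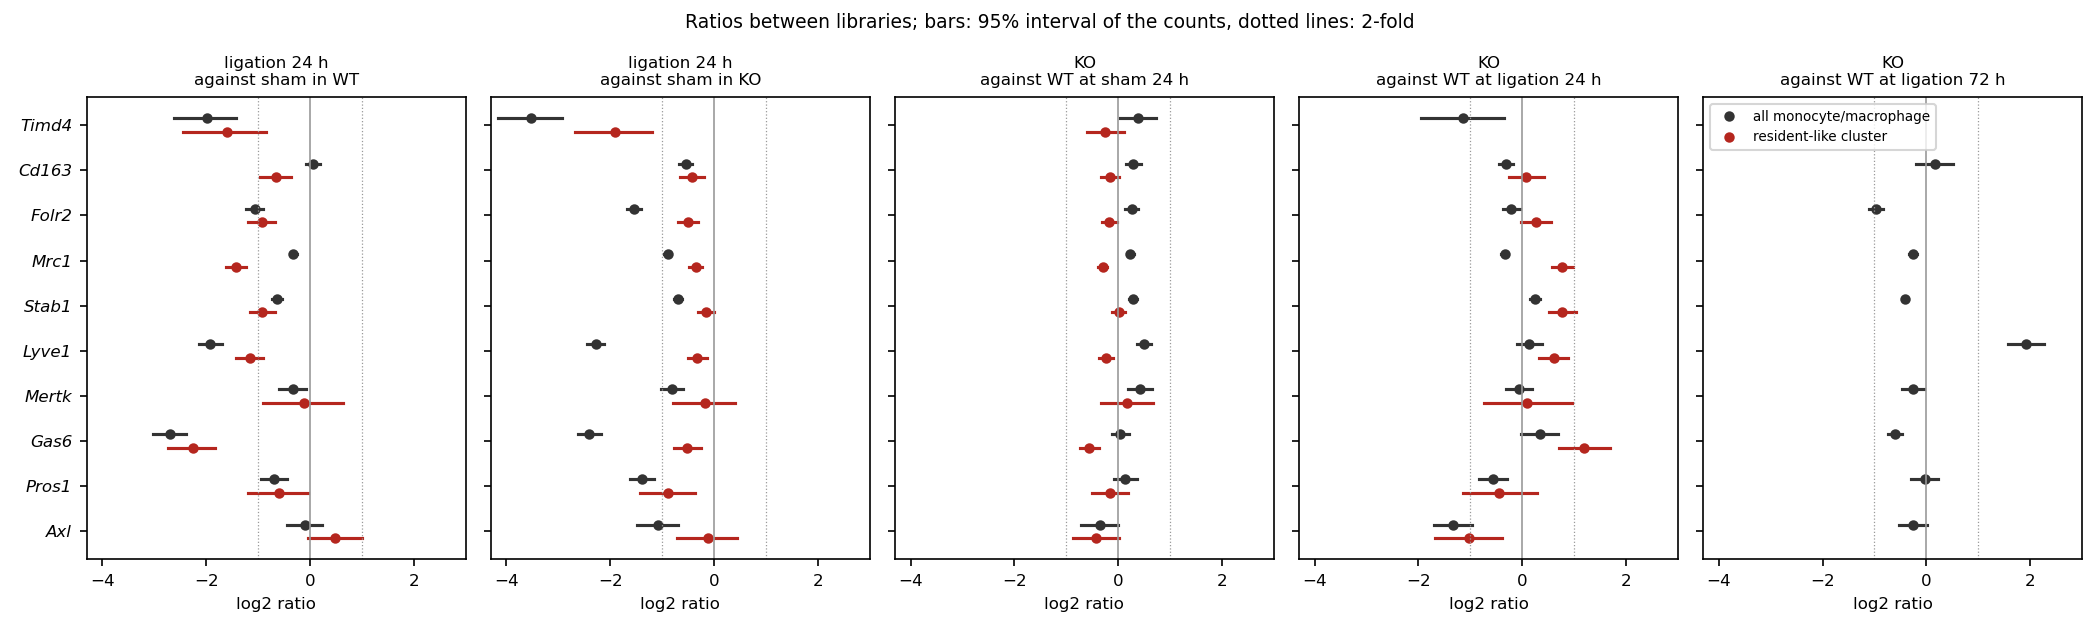
Log2 ratios (horizontal axis) of the 10 genes in 5 comparisons, in all monocyte/macrophage cells (dark) and in the resident-like cluster (red), with 95% intervals of the counts as bars and dotted lines at 2-fold. Most points lie left of 0 for ligation against sham, from 0.06 for Cd163 to -2.69 for Gas6 in WT macrophages, and near 0 for KO against WT after sham.

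Mertk, the kinase that drives engulfment by macrophages, was not 2-fold apart in any comparison over the class. In monocyte/macrophage cells it stood at 30.8 CPM in WT and 41.4 in KO after sham, 24.6 and 23.5 at 24 h after ligation, and 35.9 and 30.1 at 72 h. The 24 h ligation libraries were the lowest pair in this order, and the KO sham library the highest. Its ratio of ligation to sham was 0.798 (0.666 to 0.954) in WT and 0.569 (0.490 to 0.659) in KO, neither past 2-fold. Within the resident-like cluster Mertk was between 34.9 and 53.5 CPM in 5 libraries, with ratios of 0.929 (0.532 to 1.56) in WT and 0.884 (0.579 to 1.33) in KO for ligation against sham, so that no difference was detectable at this depth. The 29 resident-like cells of KO at 72 h held 18 Mertk UMIs, or 112 CPM (66.5 to 177). In monocytes marked by Ly6c2 and Plac8 Mertk was low, at 4.40 to 12.97 CPM in the 6 libraries, and the Trem2 cluster at 72 h had 44.3 CPM in WT and 41.9 in KO. Neutrophils held at most 1.12 CPM. Blood endothelial cells had 28.5 and 27.0 CPM after sham in WT and KO, 29.1 and 29.9 at 24 h after ligation, and 20.3 and 15.2 at 72 h.

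Axl, the related kinase that is induced in inflamed tissue and binds Gas6, was lower in KO macrophages at 24 h after ligation. Levels in monocyte/macrophage cells were 17.3 CPM in WT and 13.6 in KO after sham, 16.2 and 6.42 at 24 h after ligation, and 21.4 and 17.97 at 72 h. The KO library at 24 h after ligation lay below the other 5, which ranged from 13.6 to 21.4. The KO to WT ratio there was 0.398 (0.307 to 0.514), or -1.33 on the log2 scale. Inside the resident-like cluster Axl was at 51.1 CPM in KO against 104 in WT (ratio 0.490, 0.313 to 0.763, from 40 and 47 UMIs), or -1.03 on the log2 scale, which was between -0.81 and -0.98 without doublet removal, as a mean over cells and centred on the median gene. The monocyte/macrophage value depended on cell grouping. It was -0.87 and -0.94 on the log2 scale at clustering resolutions 0.5 and 2, -0.90 without doublet removal, and -0.90 with the unnamed MHC class II cluster counted in, none of them past 2-fold. That unnamed cluster, with 48 to 1474 cells per library, had 37.2 to 61.2 CPM of Axl. The ratio of ligation to sham in KO, 0.472 (0.359 to 0.620), likewise lay between -0.72 and -0.87 on the log2 scale under the same 4 settings and when centred on the median gene, against -1.084.

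Fibroblasts carried far more Axl than macrophages. They had 413 CPM in WT and 472 in KO after sham, 679 and 600 at 24 h after ligation, and 122 and 119 at 72 h. Both 72 h libraries lay below the other 4 without overlap. The ratio of 72 h to 24 h was 0.179 (0.159 to 0.202) in WT and 0.199 (0.174 to 0.228) in KO. In WT fibroblasts all 3 of the genes with enough UMIs (Axl, Gas6 and Pros1) were at least 2-fold lower at 72 h, where 22.2% of all genes were, and in KO the same 3 of 6 were, beside 15.7%. None was at least 2-fold higher in WT (9.02% of all genes were), and Mrc1, Folr2 and Stab1 were in KO (3 of 6, beside 10.5%). Most fibroblasts at 72 h belonged to a cluster led by the matrix genes Cthrc1, Col1a1, Tnc and Postn, which held 82 cells of WT and 750 of KO at 72 h and at most 2 in any other library. In KO at 72 h the fibroblast class also held macrophage markers summing to 16923 CPM, against 2276 to 6461 in the other libraries, beside 132 CPM of Stab1 and 112 CPM of Mrc1. Those were at most 10.1 and 21.1 CPM in fibroblasts elsewhere. Another fibroblast cluster, led by Dpep1, Fbln1 and Tnxb, held 398 cells of KO at 72 h and at most 12 in any other library. Its second-highest marker score was for monocytes and macrophages. Over all libraries it had 286 CPM of Mrc1, 286 of Stab1, 95.1 of Folr2 and 188 of Gas6. The Cthrc1 cluster had 11.7, 16.5, 3.9 and 14.2. The part of other cells' RNA in the KO fibroblast values at 72 h was not tested. Fibroblast levels and ratios, those of Axl included, were not recalculated at other resolutions, without doublet removal or with any unnamed cluster counted in.

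Timd4, which binds phosphatidylserine directly and tethers dying cells, lay mainly in the resident-like cluster after sham and was low after ligation. In monocyte/macrophage cells it stood at 14.2 CPM in WT and 18.4 in KO after sham, 3.56 and 1.61 at 24 h after ligation, and 0.478 and 0.978 at 72 h. Every ligation library lay below both sham libraries. The ratio of ligation to sham at 24 h was 0.251 (0.164 to 0.375) in WT and 0.0872 (0.0560 to 0.131) in KO. The WT value, -1.99 on the log2 scale, was -1.31 and -1.36 at resolutions 0.5 and 2 and -1.31 with the unnamed MHC class II cluster counted in. That cluster had 33.9 CPM of Timd4 in WT at 24 h after ligation, from 21 UMIs in 5 cells. Timd4 was also lower inside the resident-like cluster, where it went from 108 CPM after sham to 35.5 in WT and from 90.6 to 24.3 in KO (ratios 0.330, 0.183 to 0.554, and 0.268, 0.156 to 0.436). At 72 h the resident-like cells held 6 UMIs in WT and 4 in KO, or 17.5 and 24.9 CPM. Fewer cells carried Timd4, and they were a smaller share of macrophages: 34.6% and 29.2% of resident-like cells after sham in WT and KO had a UMI, and 11.8% and 12.0% at 24 h after ligation, at median depths of 5290 to 9227 UMIs. The lower value in KO than in WT at 24 h after ligation (ratio 0.451, 0.259 to 0.781) rests on 28 and 30 UMIs, of which 2 barcodes in WT and 4 in KO held at least 50%, and it was -0.94 on the log2 scale, under 2-fold, as a mean over cells. Ly6c2 monocytes held 0 Timd4 UMIs in all 6 libraries.

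**Figure D4:**
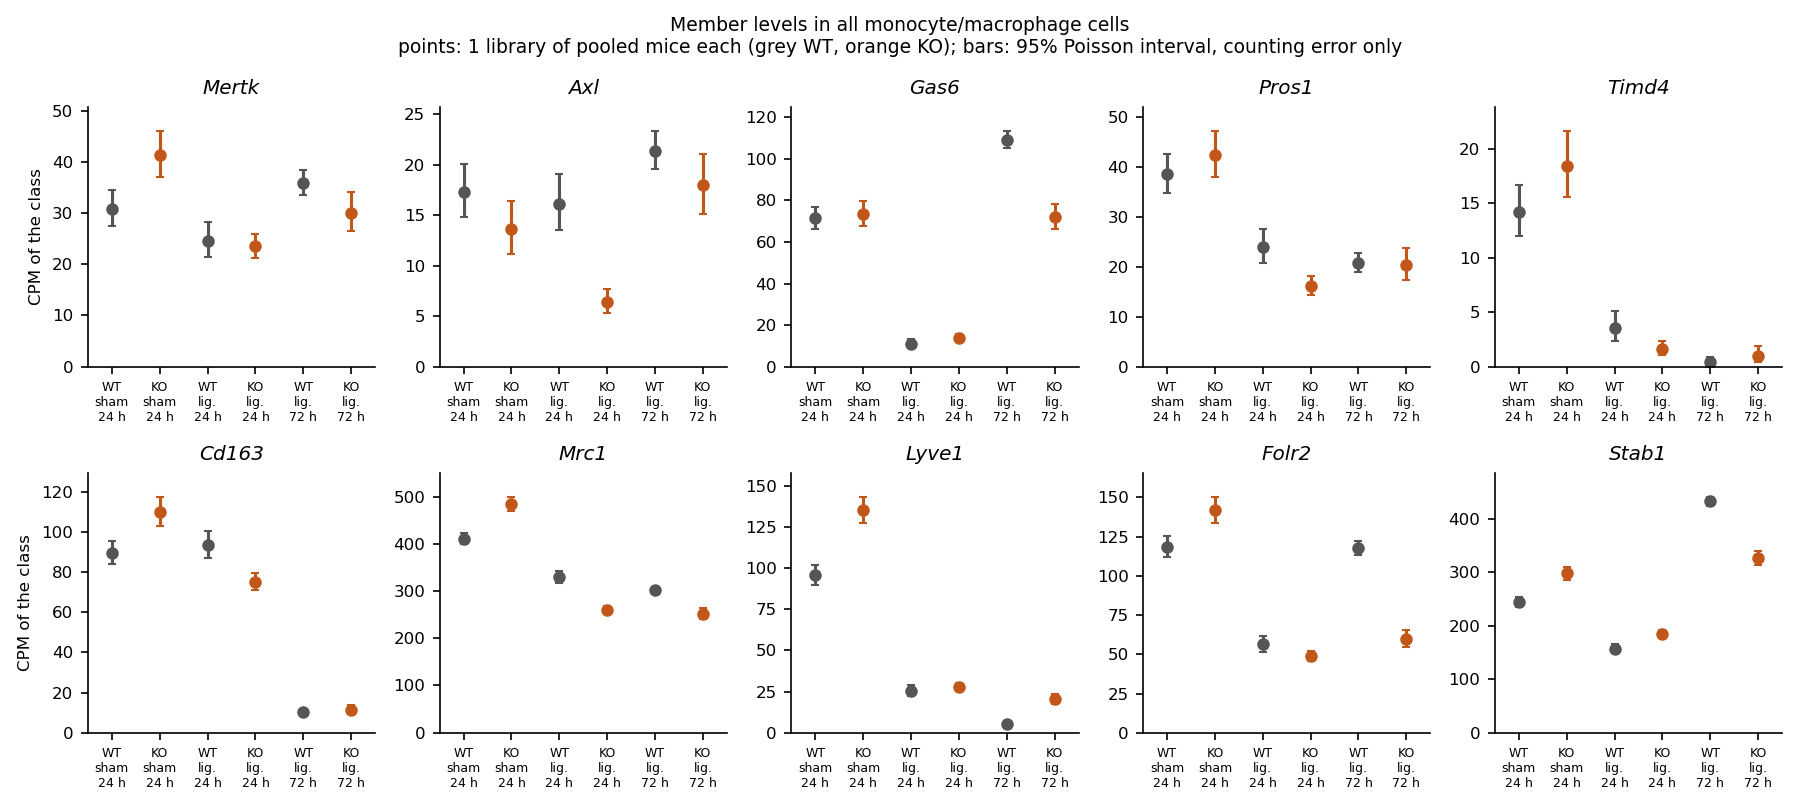
Level of each gene (CPM of the class, vertical axes) in all monocyte/macrophage cells of the 6 libraries, WT in grey and KO in orange, with bars for the 95% Poisson interval. Timd4, Lyve1 and Gas6 are lower at 24 h after ligation than after sham in both genotypes. At 72 h Gas6 is above its sham level in WT (109 CPM) and near it in KO (72.0). Cd163 has its lowest values at 72 h (10.1 and 11.4 CPM).

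The ligand Gas6, a vitamin K-dependent protein that bridges dying cells to Axl and Mertk, was low at 24 h after ligation. At 72 h it was above its sham level in WT and near it in KO. Monocyte/macrophage cells held 71.5 CPM in WT and 73.6 in KO after sham, 11.0 and 13.9 at 24 h after ligation, and 109 and 72.0 at 72 h. Both libraries at 24 h after ligation lay far below the other 4. Ligation over sham gave 0.155 (0.123 to 0.192) in WT and 0.189 (0.162 to 0.220) in KO, and that of 72 h to 24 h was 9.89 (8.04 to 12.3) in WT and 5.17 (4.44 to 6.03) in KO. The last WT value, 3.31 on the log2 scale, was 2.71 at resolution 0.5 and 2.72 with the unnamed cluster counted in. The cells behind the first and last values differed. After sham the resident-like cluster had 478 CPM in WT and 326 in KO, against 10.4 and 19.5 in the other monocyte/macrophage cells. At 72 h those other cells reached 106 CPM in WT and 66.3 in KO, with 163 and 134 CPM in the Trem2 cluster and 1.12 and 1.24 CPM in Ly6c2 monocytes. The Ccl24 cluster, present at all times, went from 5.03 CPM at 24 h to 50.04 at 72 h in WT and from 3.89 to 21.6 in KO.

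Inside the resident-like cluster the genotypes differed in Gas6 at 24 h after ligation. Levels there were 478 CPM in WT and 326 in KO after sham, 99.9 and 229 at 24 h after ligation, and 311 and 355 at 72 h. The WT library at 24 h after ligation was the lowest of the 6 and the only one below 200 CPM. Its ratio to sham was 0.209 (0.151 to 0.283), whereas in KO it was 0.702 (0.587 to 0.836). The ratio of KO to WT was 2.29 (1.64 to 3.25), from 179 UMIs in 48 of 75 cells and 45 UMIs in 20 of 51 cells. In that comparison Gas6 was the 1 gene of 9 at least 2-fold higher (1.18% of all genes were) and Axl the 1 lower (2.69%). On the log2 scale the value 1.196 became 0.97 without doublet removal and 0.86 with the 10 genes allowed among those used to cluster, both short of 2-fold.

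Stromal Gas6 moved in another way. Blood endothelial cells had 208 CPM in WT and 164 in KO after sham, 104 and 121 at 24 h after ligation, and 71.4 and 63.0 at 72 h, both sham libraries lying above all ligation libraries. Fibroblasts had 386 and 323 after sham, 339 and 438 at 24 h, and 40.1 and 99.5 at 72 h, with the 72 h libraries below the rest. The 438 CPM of KO at 24 h after ligation rests in good part on few cells, as 1 barcode held 125 of the 424 UMIs (29.5%) and 5 of the 112 cells held 52.8%. Without that barcode the level was 314 CPM, and without the leading barcode of WT at 24 h after ligation, KO sham and WT sham it was 299.7, 303 and 352, so that no order of the 24 h libraries can be read from these values. The KO to WT ratio in fibroblasts at 72 h was 2.48 (2.002 to 3.08). In KO the class then held the raised macrophage markers and the 398 cells of the Dpep1, Fbln1 and Tnxb cluster given above. Among fibroblasts at 72 h, 4 of 6 genes were at least 2-fold higher in KO (Gas6, Mrc1, Folr2 and Stab1), beside 9.49% of all genes. None was lower (3.59%). The part of that cluster in these ratios was not tested.

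Pros1, the second bridging ligand and an anticoagulant protein of plasma, was spread over endothelial cells, fibroblasts and macrophages. In monocyte/macrophage cells it stood at 38.5 CPM in WT and 42.5 in KO after sham, 24.0 and 16.2 at 24 h after ligation, and 20.8 and 20.4 at 72 h. Both sham libraries were above all 4 ligation libraries. The ratio of ligation to sham at 24 h was 0.622 (0.522 to 0.740) in WT and 0.382 (0.325 to 0.449) in KO, and that of 72 h to 24 h was 0.866 (0.733 to 1.03) and 1.26 (1.03 to 1.53). Ly6c2 monocytes expressed it too, at 17.2 to 31.3 CPM. Blood endothelial cells had between 56.6 and 97.3 CPM in the 6 libraries, with no ratio past 2-fold, and fibroblasts had 112 in both sham libraries and 57.2 (WT) and 45.7 (KO) at 72 h.

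Among the scavenger receptors, Cd163, which takes up hemoglobin bound to haptoglobin, was near its sham level at 24 h after ligation in WT, lower than after sham in KO, and low at 72 h in both. Monocyte/macrophage cells held 89.6 CPM in WT and 110 in KO after sham, 93.6 and 75.2 at 24 h after ligation, and 10.1 and 11.4 at 72 h. The 72 h libraries stood apart from the other 4. Ligation over sham gave 1.04 (0.948 to 1.15) in WT and 0.684 (0.627 to 0.746) in KO, and that of 72 h to 24 h was 0.108 (0.0931 to 0.125) and 0.151 (0.121 to 0.187). As a mean over cells the WT value was -2.53 on the log2 scale, against -3.21, and the WT ratio of ligation to sham turned from 0.06 to -0.34. The level near 90 CPM in WT at both times was made of different cells. Resident-like cells had 402 CPM after sham and 255 at 24 h after ligation, and the other cells 42.6 and 84.4, with 107 CPM in the Ccl24 cluster at 24 h after ligation. That cluster had 18.3 CPM at 72 h in WT and went from 79.2 to 8.55 in KO, and the Trem2 cluster had 7.12 and 9.85 CPM.

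Mrc1, the mannose receptor CD206, was within 2-fold in every comparison over the whole class. It had 411 CPM in WT and 484 in KO after sham, 330 and 261 at 24 h after ligation, and 301 and 252 at 72 h, with no ratio past 2-fold except that of ligation to sham in KO as a mean over cells (-1.004 on the log2 scale, against -0.89). Both sham libraries lay above all ligation libraries. The resident-like cluster differed more, with 1559 and 1268 CPM after sham, 582 and 992 at 24 h after ligation, and 626 and 1116 at 72 h. In WT the ratio of ligation to sham there was 0.373 (0.327 to 0.424), and in KO it was 0.782 (0.718 to 0.852). KO was above WT at 24 h after ligation by a ratio of 1.71 (1.48 to 1.97) and below it after sham (0.813, 0.763 to 0.867). Ly6c2 monocytes held 8.30 to 25.2 CPM.

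**Figure D5:**
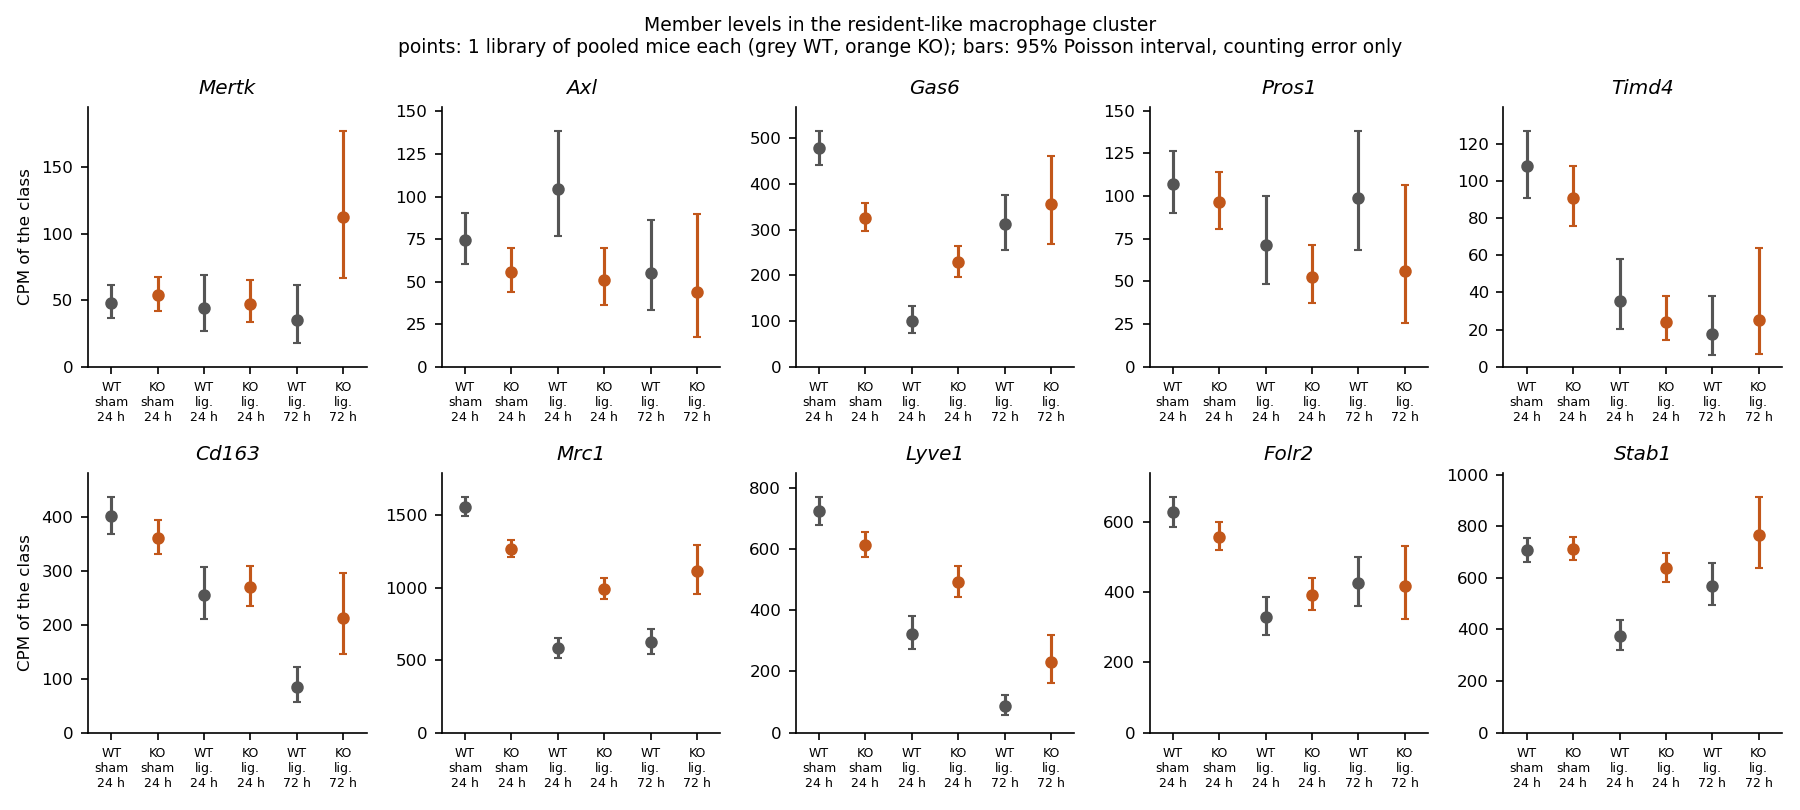
Level of each gene (CPM of the class, vertical axes) in the resident-like cluster of the 6 libraries, WT in grey and KO in orange, with bars for the 95% Poisson interval. At 24 h after ligation WT lies below KO for Gas6 (99.9 and 229 CPM), Mrc1 (582 and 992), Lyve1 (324 and 492) and Stab1 (375 and 639), and above it for Axl (104 and 51.1).

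Lyve1, a hyaluronan receptor of lymphatic vessels and of resident macrophages, was lower after ligation. Levels in monocyte/macrophage cells were 95.6 CPM in WT and 135 in KO after sham, 25.3 and 27.8 at 24 h after ligation, and 5.35 and 20.3 at 72 h. Each ligation library lay below both sham libraries. The ratio of ligation to sham at 24 h was 0.265 (0.227 to 0.307) in WT and 0.206 (0.184 to 0.229) in KO. From 24 h to 72 h it was 0.211 (0.168 to 0.265) in WT, or -2.24 on the log2 scale, with -1.41 to -3.06 under other settings. In KO it was 0.731 (0.609 to 0.874), or -0.45, and between -1.27 and -1.98 at both other resolutions, without doublet removal and with the unnamed cluster counted in, and 0.09 as a mean over cells. Within the resident-like cluster the levels were 724 and 614 after sham, 324 and 492 at 24 h, and 87.3 and 231 at 72 h, with ratios of ligation to sham of 0.448 (0.374 to 0.533) in WT and 0.802 (0.709 to 0.905) in KO. The WT value at 24 h rests on few cells: 146 UMIs lay in 16 of 51 cells and 1 barcode held 36.3% of them, without which the level was 214 CPM. In KO 385 UMIs lay in 36 of 75 cells. At 72 h the resident-like UMIs, 30 in WT and 37 in KO, lay in 5 cells of each library.

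The higher Lyve1 of KO macrophages at 72 h lay mostly outside the resident-like cluster, with 129 of 166 UMIs. Over the whole class the ratio of KO to WT was 3.80 (2.99 to 4.83), or 1.92 on the log2 scale, against 123 UMIs in WT. In the low-depth Ear2 cluster 56 UMIs lay in 44 of 949 KO cells, against 0 in the 37 WT cells, and in the Trem2 cluster the level was 12.9 CPM in KO against 1.083 in WT. The Ccl24 cluster had 13.1 CPM in both. The log2 value was 1.54 without the low-depth cluster, 1.49 in cells of at least 2000 UMIs, 1.32 at resolution 0.5, 1.06 without doublet removal, and 0.97, under 2-fold, at resolution 2. Markers of other cells were also higher in the KO class at 72 h: blood endothelial markers summed to 1197 CPM against 187 in WT, lymphatic endothelial markers to 203 against 38.2, and erythroid markers to 1863 against 4.69. Their part in the Lyve1 difference was not tested. After sham, too, KO cells outside the resident-like cluster held more Lyve1 than WT (32.3 against 1.25 CPM), but 3 of 564 barcodes held at least 50% of those 211 UMIs.

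Lymphatic endothelial cells, few in number at 8 to 37 per library, had 927 and 1859 CPM of Lyve1 after sham in WT and KO, 1773 and 2727 at 24 h after ligation, and 961 and 1705 at 72 h. KO lay above WT in each of the 3 conditions, with 1 library each and no test. In WT at 24 h after ligation 1 barcode held 138 of 381 UMIs (36.2%), and in KO 101 of 348 (29.0%), and without them the levels were 1293 and 2097 CPM. The Npr3 endothelial cluster, of 10 to 78 cells, had 174 and 195 CPM after sham, 436 and 627 at 24 h and 29.4 and 41.8 at 72 h, the last from 3 and 2 UMIs.

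Folr2, a folate receptor of resident macrophages, was lower at 24 h after ligation than after sham over the whole class. All monocyte/macrophage cells held 119 CPM in WT and 142 in KO after sham, 56.7 and 48.9 at 24 h after ligation, and 118 and 60.0 at 72 h. WT at 72 h lay next to WT sham, and KO at 72 h stayed near the 24 h ligation libraries. Ligation over sham gave 0.478 (0.429 to 0.532) in WT and 0.345 (0.315 to 0.377) in KO, and centring on the median gene brought the WT value to -0.95 on the log2 scale. The ratio of KO to WT at 72 h was 0.511 (0.463 to 0.562), or -0.97, which centring moved to -1.003 and past 2-fold. In the resident-like cluster it was at 627 and 557 CPM after sham, 329 and 392 at 24 h after ligation, and 425 and 418 at 72 h, the last from 35 and 29 cells. In the WT library at 24 h after ligation 1 barcode held 31.8% of the 148 UMIs there, and the level was 232 CPM without it. The other monocyte/macrophage cells had 42.3 and 52.8 CPM after sham, 41.3 and 32.8 at 24 h after ligation, and 113 and 52.9 at 72 h. In the Trem2 cluster WT had 160 CPM and KO 92.4. The higher WT level at 72 h than at 24 h, a ratio of 2.08 (1.88 to 2.29), was between 0.77 and 0.85 on the log2 scale, short of 2-fold, at both other resolutions, without doublet removal and with the unnamed cluster counted in.

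Stab1, the scavenger receptor stabilin-1, which also binds phosphatidylserine, was highest at 72 h. It stood at 244 CPM in WT and 298 in KO after sham, 156 and 185 at 24 h after ligation, and 433 and 326 at 72 h. The 3 conditions did not overlap. The ratio of 72 h to 24 h was 2.77 (2.61 to 2.93) in WT and 1.76 (1.68 to 1.86) in KO, and that of ligation to sham at 24 h was 0.641 (0.599 to 0.686) and 0.622 (0.589 to 0.656). As with Gas6, the cells outside the resident-like cluster carried it at 72 h, with 431 and 318 CPM, and 577 and 516 in the Trem2 cluster. The resident-like cluster held 708 and 714 CPM after sham, 375 and 639 at 24 h, and 571 and 767 at 72 h. Stab1 was the gene of the set most seen in neutrophils, at 6.17 to 28.1 CPM, and in Ly6c2 monocytes it was 36.4 to 84.1 CPM.

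Over the resident-like cluster as a whole, sham and 24 h after ligation were compared on 51 WT and 75 KO cells of the ligated hearts. In WT 4 of the 10 genes (Gas6, Timd4, Mrc1 and Lyve1) were at least 2-fold lower, beside 6.32% of the 4680 genes measured. In KO Timd4 was, 1 of 10 beside 4.77% of 5136 genes. No gene of the set was at least 2-fold higher in either (4.06% and 2.26% of all genes). The median log2 ratio was -0.92 in WT and -0.39 in KO, beside -0.04 and -0.06 over all genes. Lyve1 in WT was -0.81 without doublet removal and -0.99 with the 10 genes allowed in the clustering, against -1.16. The other way, Folr2 in WT was -1.009 with the 10 genes allowed and -1.08 as a mean over cells, against -0.93. Stab1 in WT was -1.12 as a mean over cells, against -0.92. The ratios of Timd4, Axl, Mertk and Pros1 were lower in KO than in WT, and those of the other 6 genes were higher. The difference between the genotypes in these ratios was not tested. Neutrophil markers in this cluster summed to 457 CPM in WT and 92.1 in KO after sham and to 191 and 1175 at 24 h after ligation, and dendritic markers, MHC class II genes included, to 6546 and 5708 at that time. Their part in these ratios was not tested.

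In the resident-like cluster between 24 h and 72 h, WT had Gas6 at least 2-fold higher (1 of 8 genes with enough UMIs, beside 4.1% of all genes) and Cd163 and Lyve1 at least 2-fold lower (2 of 8, beside 9.74%). The Gas6 ratio was 3.12 (2.18 to 4.52), that of Cd163 0.331 (0.212 to 0.501) and that of Lyve1 0.269 (0.176 to 0.401), all from 51 and 35 cells. KO had 29 cells at 72 h and no ratio was formed. After sham, KO and WT were within 2-fold for all 10 genes, as 0.548% of all genes were higher and 0.498% lower in KO by that much.

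In the monocyte/macrophage cells outside that cluster, 9 genes had enough UMIs. Between sham and 24 h after ligation only Lyve1 was at least 2-fold higher in WT (1 of 9, beside 2.79%) and none was lower (1.68%). Its ratio rests on 67 and 11 UMIs, and 2 barcodes held at least 50% of the 67. In KO Gas6, Pros1 and Lyve1 were at least 2-fold lower (3 of 9, beside 4.65%) and none was higher (1.74%). From 24 h to 72 h Gas6, Folr2 and Stab1 were higher in WT (3 of 9, beside 10.5%) and Gas6, Axl and Lyve1 in KO (3 of 9, beside 9.7%). Cd163 and Lyve1 were lower in WT (2 of 9, beside 7.84%) and Cd163 in KO (1 of 9, beside 2.9%). KO was above WT in Lyve1 after sham (1 of 9, beside 1.62%, with 0 lower beside 0.314%). At 24 h after ligation Axl was lower in KO (1 of 9, beside 1.71%) and none was higher (0.683%). At 72 h Lyve1 was higher (1 of 9, beside 4.81%) and Folr2 lower (1 of 9, beside 0.732%) in KO. The Gas6 ratio of 72 h to 24 h in these cells was 17.6 (13.3 to 24.0) in WT and 17.3 (13.3 to 22.7) in KO.

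Cells with any UMI of Timd4, Lyve1 or Folr2 were counted after thinning each cell to 1000 UMIs. They were 44.9% and 35.6% of resident-like cells after sham in WT and KO, 23.5% and 33.3% at 24 h after ligation, and 37.1% and 44.0% at 72 h, with intervals as wide as 12.8 to 37.5 in WT at 24 h. Among the other monocyte/macrophage cells they were 3.48% and 5.88% after sham, 4.19% and 3.03% at 24 h, and 8.65% and 8.13% at 72 h, when 896 shallow cells of KO were left out. Neutrophils, which should lack these receptors, gave 0% to 0.496%. Without thinning the resident-like shares were 54.3% to 64.0% and those of neutrophils 0% to 0.873%, at median depths of 4311 to 9227 and 1952 to 3163 UMIs. The unthinned shares of the other cells were 37.7% in WT at 72 h and 12.3% in KO at 72 h, where their median depth was 1252.5 UMIs, and 13.98% to 22.2% in the rest. At 1000 UMIs the intervals of WT (7.34 to 10.1) and KO (6.77 to 9.68) at 72 h overlapped. At 2000 UMIs the shares at 72 h were 15.8% and 9.51%, with 1523 KO cells left out, and 4.05% to 8.17% in the other libraries.

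Other efferocytosis genes passed 2-fold in both directions. The list of 35 held bridging proteins, receptors, engulfment machinery, sheddases, nuclear receptors and their targets, signals against uptake, and the feedback genes Socs1 and Socs3, and 31 were measured in monocyte/macrophage cells. At 24 h after ligation in WT, 4 were at least 2-fold higher than after sham and 3 lower, where 2.57% and 3.28% of all genes were, with a median log2 ratio of -0.13 beside -0.11 over all genes. Socs1, a brake on cytokine signalling, was highest (2.01), followed by Thbs1 (1.25), which bridges dying cells to integrins and is also on the list of recruited monocyte genes, and Havcr2 (1.15). Nr1h3, the oxysterol receptor LXR-alpha, was at -1.37, the complement gene C1qa at -1.06 and Mylip at -1.05. In KO 2 were higher and 7 lower, beside 1.84% and 7.01% of all genes and with a median of -0.37 beside -0.27. Among the lower were the scavenger receptor Cd36 (-1.38) and the engulfment machinery gene Dock1 (-1.34).

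From 24 h to 72 h 7 of the 31 genes were higher and 3 lower in WT, beside 9.49% and 7.8% of all genes, and 6 and 3 in KO, beside 9.18% and 2.87%. C1qb (1.84), C1qa (1.72) and Nr1h3 (1.65) led in WT, and Mfge8 (2.26), another phosphatidylserine bridge, Mylip (2.05) and Pparg (2.02) in KO. Cd14 was lower in both, at -1.94 and -1.20. Between genotypes 1 gene of 31 was higher after sham (Socs1, 1.06) and none was 2-fold apart at 24 h after ligation. At 72 h Mfge8 was higher (2.04) and Socs1 lower (-1.17) in KO. These counts are read against the shares over all genes given above for the same genotype comparisons. At 72 h blood endothelial cells had 165 CPM of Mfge8 in KO and 212 in WT, and fibroblasts 87.6 and 106. The part of the raised endothelial markers of the KO class in the Mfge8 values was not tested.

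Of 20 other resident macrophage genes 18 were measured. The list includes the markers that named the resident-like cluster, Vsig4, Fcna, Selenop and Igf1 among them. Its values and the share of that cluster are therefore not separate observations. At 24 h after ligation 0 were at least 2-fold higher and 4 lower in WT, with a median log2 ratio of -0.57 beside -0.11 over all genes, led by the selenium carrier Selenop (-1.58) and the lectin Fcna (-1.44). In KO 0 were higher and 10 lower, with a median of -1.06 beside -0.27, led by the complement receptor Vsig4 (-3.08) and the growth factor Igf1 (-2.59). At 72 h against 24 h, Selenop (2.08), Cx3cr1 (1.86) and Igf1 (1.79) were among 4 higher in WT while Vsig4 was among 3 lower (-3.66), and KO had Igf1 (2.31), Cx3cr1 (2.02) and Selenop (1.63) higher and 3 lower. Vsig4 and Igf1 were the 2 genes of this list lower in KO than WT at 24 h after ligation, at -1.96 and -1.12. Of 15 genes of recruited monocytes, 5 were higher and 0 lower at 24 h after ligation in WT and 3 and 0 in KO, with medians of 0.78 and 0.65, and with S100a8 at 2.61 and 2.44, whereas from 24 h to 72 h 0 were higher and 11 lower in WT and 0 and 7 in KO. These 2 lists are read against the same shares over all genes given for efferocytosis. Both also hold markers that named the monocyte/macrophage class. Csf1r and Adgre1 are among them in the resident list, and Ccr2, Ly6c2, Plac8, Chil3, Arg1 and Spp1 in the recruited monocyte list. S100a8 is a neutrophil marker too, and neutrophil markers in the macrophage class summed to 389 and 584 CPM after sham and 2143 and 3287 at 24 h after ligation. Their part in that value was not tested.

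Over 47 sums of a class in a library, 12628 genes were ranked by likeness to each gene, as Pearson's r of log2(CPM + 1). Points share libraries, depth and class, so the values only describe patterns. Of the genes given below, Vsig4 and Cbr2 also helped name the resident-like cluster, and C1qa the monocyte/macrophage class. Timd4 was nearest to Vsig4 (0.93), Chp2 (0.92) and Ccdc106 (0.91), and Lyve1 to Chp2 (0.91), Lilra5 (0.87) and Vsig4 (0.86). Cd163 was nearest to Folr2 (0.89), Cbr2 (0.88) and Lilra5 (0.88). Folr2 lay nearest to Npl (0.93), Siglec1 (0.93) and C1qa (0.93), and Mrc1 to Ptpro (0.96), Kcnk13 (0.93) and Tnfrsf11a (0.92). Stab1 followed Pdlim4, Tmem37 and Slc7a7 (all 0.86). Mertk was nearest to Frmd4b (0.88), Camk1 (0.86) and Coprs (0.84). Among the genes most like Axl was Plxdc2 (0.87). For the ligands, Gas6 was nearest to Nuak1 (0.92), Itga9 (0.91) and Trim47 (0.90), and Pros1 to Nav1 (0.90), Rgmb (0.89) and Stxbp6 (0.88). Among pairs of the 10 genes the highest r was that of Mrc1 and Folr2 (0.90), and the lowest that of Axl and Stab1 (0.04).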

How the data were processed

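Each of the 6 libraries was deposited as a matrix of UMI counts per gene and cell, which the authors made with Cell Ranger 6.0.0 on mm10, per the submitters' processing notes. From these counts, cells with at least 200 genes and at most 20% mitochondrial UMIs were kept. Scrublet's automatic threshold marked 0 to 19 cells per library, so its highest scores were removed at a fixed 0.8% per 1000 cells (1653 cells). Cells were clustered with scanpy 1.11.5 and leidenalg 0.10.2 on 2000 variable genes, 30 components and 20 neighbours at resolution 1, without the 10 genes, and clusters were named from marker lists. Lymphatic endothelial cells were split from their cluster after the data were seen.

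UMIs were summed per class and library. A ratio carries an exact conditional Poisson interval, and a share a Clopper-Pearson one (95%, scipy 1.17.1). A gene counts as 2-fold apart with at least 50 UMIs over both libraries, and its class needed 100 cells (30 in the resident-like cluster). The order of classes used the same minimums, and 10 cells for the lymphatic and Npr3 endothelial clusters. The scripts were tested on simulated data. Named are the 10 genes, in classes where they reach 20 CPM in a library, the up to 3 highest and 3 lowest genes of each list, and the 3 genes most like each gene, of which some for Axl are not reported here. The 10 genes and the lists were chosen with earlier results of these data known.

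Alternatives were other resolutions, no doublet removal, the 10 genes among the variable genes, the mean over cells, centring on the median gene, a minimum of 2000 UMIs per cell and no minimum of UMIs per gene. Counting in the unnamed cluster and leaving out the low-depth cluster or the barcode with most UMIs of a gene were added after the data were seen.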

Additional observations from a re-analysis of the deposited data

Results flagged for a closer look

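In some comparisons the log2 ratio of KO to WT lay on opposite sides of 0 in 2 conditions, with intervals that left out 0 in both. None of these differences was tested, as each group is 1 library.

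In monocyte/macrophage cells Timd4 was at 0.38 after sham and -1.15 at 24 h after ligation, the latter from 28 and 30 UMIs. Cd163 went from 0.30 to -0.32, Mrc1 from 0.24 to -0.34 and Folr2 from 0.26 to -0.21 between the same conditions. At 72 h Mertk was at -0.26 against 0.42 after sham, Mrc1 at -0.26 against 0.24, Folr2 at -0.97 against 0.26 and Stab1 at -0.41 against 0.29. Stab1 was also positive at 24 h after ligation (0.24).

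In the resident-like cluster the sign was the other way round. Gas6 was at -0.55 after sham and 1.20 at 24 h after ligation, Mrc1 at -0.30 and 0.77, and Lyve1 at -0.24 and 0.60, with 36.3% of the Lyve1 UMIs of WT at 24 h after ligation in 1 barcode.

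In fibroblasts Gas6 was at -0.26 in the sham hearts, 0.37 in those ligated for 24 h and 1.31 at 72 h. The KO fibroblasts at 72 h included 398 cells of the Dpep1, Fbln1 and Tnxb cluster, whose part in the value 1.31 was not tested. Axl was at 0.19 after sham and -0.18 in the ligated hearts at 24 h. The Gas6 ratio of ligation to sham at 24 h was -0.19 in WT and 0.44 in KO. The values 0.37 and 0.44 rest in good part on 1 barcode, which held 125 of the 424 Gas6 UMIs of the KO fibroblasts at 24 h after ligation (29.5%). Without it their level was 314 CPM instead of 438, below the 339 CPM of WT at that time and the 323 of KO sham.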

How the results depend on the processing

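No paired analysis was possible because each group is 1 library. In monocyte/macrophage cells, the count of genes at least 2-fold lower at 72 h than at 24 h in KO was 1 and became 2 at resolutions 0.5 and 2, without doublet removal and with the unnamed MHC class II cluster counted in. The count lower in KO than WT at 24 h after ligation was 2 and became 1 under those 4 settings and as a mean over cells. At 72 h the count higher in KO was 1 and became 0 at resolution 2 and 2 with no minimum of UMIs, and the count lower was 0 and became 1 when centred on the median gene. The cause was not tested. Of 982 ratios of single genes under all alternatives, all in monocyte/macrophage or resident-like cells, 32 crossed 2-fold and 28 changed sign. No count of genes reversed. Depth limits Timd4 after 24 h and all resident-like values at 72 h, which rest on 35 and 29 cells.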
